A study of Saccharomyces cerevisiae with 18 samples.

Results

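The 239 genes closest to the chromosome ends were followed among the 5830 genes of the yeast RNA-seq table. In each of the 32 chromosome arms, genes with a standard systematic name ending in W or C were ordered by the number in that name, which rises towards the telomere. The 8 outermost were taken, which gave 256 candidates, and 17 of these were dropped because the rule excluded 20 genes by name. Between 5 and 8 genes remained per arm, 124 on left arms and 115 on right arms. The rule used names only and no measured value, but it was set with earlier results of these data known. Of the 239, 230 were found in the R64 annotation (the build also called sacCer3), where they began 263 to 46158 bp from a chromosome end, with a median of 17043 bp. Within 10 kb of an end lay 52 of them and within 30 kb 204. The other 9 names were not in that annotation, so no position is given for them. The 28 members in the eighth position from an end had a median of 30.7 CPM (a read count scaled to library size), and the 32 genes in the ninth position, which were not taken, 25 CPM.

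The zones next to yeast telomeres hold few essential genes and many small families whose copies lie at several ends, among them the COS, PAU, AAD, MAL, IMA, THI and SNZ genes. Close to the telomere the Sir2, Sir3 and Sir4 proteins can spread along nucleosomes with deacetylated histones and silence genes, and the histone variant H2A.Z together with acetylation of histone H4 limits that spread. Further inward many genes are kept low in rich glucose medium by repressors and are induced when a vitamin, a metal, a sugar or a sulfur source changes.

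Poly(A) RNA came from 6 strains grown in rich glucose medium (YPD), each in 3 independent cultures. Wild type carried intact ISW1a, a remodeler formed by the ATPase Isw1 and Ioc3. Strain ioc3Δ lacked Ioc3, ioc3ΔcHLB made an Ioc3 with part of its linker-DNA-binding HLB domain removed, and yaf9Δ lacked Yaf9, a histone-acetylation reader shared by the acetyltransferase NuA4 and the H2A.Z-depositing remodeler SWR1. Strains ioc3Δ yaf9Δ and ioc3ΔcHLB yaf9Δ carried both changes. All 6 strains were labelled as BY4742 with a FLAG tag, and the labels do not say whether the 3 cultures of a strain came from separate transformants.

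Reads of the altered genes matched the strain names, with 2 IOC3 reads over the 3 ioc3Δ libraries against a wild type mean of 60.2 CPM, and 0 YAF9 reads in both double mutants against 33.8 CPM. In yaf9Δ 3 YAF9 reads remained. The BY4742 label went against the data: STE2, which encodes the receptor of a cells, had strain means of 742 to 1024 CPM, while the alpha-factor gene MF(ALPHA)1 was at 0.595 to 3.15 CPM, and reads were present for LYS2 (171 to 193 CPM) and URA3 (126 to 174 CPM), genes that BY4742 lacks. Other alpha-cell genes were not all near 0, with SAG1 at 28.1 to 45.95 CPM and STE3 at 1.001 to 12.1 CPM, highest in ioc3Δ. The ranges are those of the 6 strain means, and the strains are called here by their genotype only. Libraries held 5145170 to 10192972 reads, so 1 read was worth 0.0854 to 0.201 CPM. CPM is the read count of a gene scaled to the effective size of its library. Wild type replicate 2 stood apart from the other wild type libraries, since its counts differed from those of replicates 1 and 3 with a chi-square of 56.5 and 50.3 for each degree of freedom, while replicates 1 and 3 differed by 14.9. Libraries of other strains stood apart as well. In ioc3Δ yaf9Δ, replicate 3 differed from replicates 1 and 2 by 34.2 and 40.1, and these from each other by 11.1. In ioc3ΔcHLB yaf9Δ, replicate 1 differed from replicates 2 and 3 by 29.15 and 32.05, and these from each other by 4.23. Replicate 3 of ioc3ΔcHLB differed from the others by 44.8 and 34.4, and these from each other by 19.6. Results that change without wild type replicate 2 are given with that value.

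The DNA upstream of 6 members whose changes recur in the results below is shown, chosen for the motif each holds. Printed are the 200 bases that end 100 bases before the start codon, read 5′ to 3′ on the coding strand, from the RefSeq R64 genome. Capitals mark the letters searched for, in either orientation. In the windows of YDR541C (chrIV:1520799-1520998, minus strand), MSC1 (chrXIII:16777-16976, minus strand) and GTT1 (chrIX:424614-424813, minus strand) they mark AGGGG, the stress response element. In MMP1 (chrXII:17656-17855, plus strand) they mark CTGTGGC, the core bound by Met31 and Met32, in FIT3 (chrXV:1061156-1061355, minus strand) TGCACCC, bound by the iron regulator Aft1, and in BAT1 (chrVIII:517232-517431, plus strand) the Leu3 motif, CCG and CGG with any 4 bases between them.
YDR541C: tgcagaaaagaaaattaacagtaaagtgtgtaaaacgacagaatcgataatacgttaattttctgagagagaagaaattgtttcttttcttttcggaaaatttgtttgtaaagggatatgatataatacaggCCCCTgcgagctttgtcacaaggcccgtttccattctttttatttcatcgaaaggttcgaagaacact
MSC1: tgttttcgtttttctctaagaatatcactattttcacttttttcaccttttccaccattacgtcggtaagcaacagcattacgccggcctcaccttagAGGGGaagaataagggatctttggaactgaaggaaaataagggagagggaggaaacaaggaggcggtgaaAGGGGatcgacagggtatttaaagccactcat
GTT1: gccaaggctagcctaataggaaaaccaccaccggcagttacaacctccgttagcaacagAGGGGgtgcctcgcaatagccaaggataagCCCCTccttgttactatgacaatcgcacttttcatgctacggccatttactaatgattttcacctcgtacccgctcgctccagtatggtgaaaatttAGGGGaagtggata
MMP1: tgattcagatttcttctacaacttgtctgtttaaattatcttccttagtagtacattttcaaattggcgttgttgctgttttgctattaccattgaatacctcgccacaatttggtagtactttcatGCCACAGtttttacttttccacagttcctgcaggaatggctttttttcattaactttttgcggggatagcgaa
FIT3: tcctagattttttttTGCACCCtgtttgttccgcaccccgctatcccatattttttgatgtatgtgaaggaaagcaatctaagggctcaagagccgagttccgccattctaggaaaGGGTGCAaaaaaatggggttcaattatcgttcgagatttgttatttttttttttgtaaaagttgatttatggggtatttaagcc
BAT1: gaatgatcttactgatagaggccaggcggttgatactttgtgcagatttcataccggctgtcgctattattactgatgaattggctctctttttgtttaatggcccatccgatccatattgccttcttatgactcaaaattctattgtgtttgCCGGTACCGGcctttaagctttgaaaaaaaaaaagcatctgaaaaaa
The letters are a description of these windows and not evidence of binding. AGGGG stood in 17.0% of the 230 member windows and 16.5% of 5633 windows of all annotated genes, CTGTGGC in 3.0% and 1.6%, TGCACCC in 2.6% and 1.0%, and the Leu3 motif in 2.6% and 1.3%. CACGTG, bound by Cbf1, stood in 2.2% and 3.1%. MMP1 and its neighbour MHT1 are transcribed away from each other and share the DNA between them, so the CTGTGGC match lies upstream of both.

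Most of these genes were weakly expressed. Their median over the 18 libraries was 14.9 CPM, or 11.7 CPM per kb of gene length, against 52.4 CPM and 41.0 CPM per kb over all genes. Below 5 CPM lay 77 of the 239 members, out of 565 such genes in the whole table. The level was lowest next to the telomere: members within 10 kb of an end had a median of 5.39 CPM per kb, those at 10 to 20 kb 10.8, those at 20 to 30 kb 27.6 and those at 30 to 50 kb 18.1. The 53 members with a near-identical copy elsewhere, at 90% protein identity or more, had a median of 2.08 CPM, and the 186 others 22.4 CPM. Reads of such copies can be split or lost in counting, so values of copied genes are uncertain.

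The highest members included housekeeping genes. HXK2 (hexokinase, the first step of glucose use) had a mean of 1007 CPM per kb, ERG13 (HMG-CoA synthase of sterol synthesis) 742, ZUO1 (a ribosome-bound chaperone) 628, BAT1 560 and SAM4 431. In contrast, the helicase genes of the Y′ elements that abut many telomeres were near the detection limit. YRF1-2 ranged from 0.1396 to 0.6899 CPM in wild type and from 0.784 to 1.36 CPM in yaf9Δ, and YRF1-4 from 1.26 to 1.92 and from 1.11 to 2.48 CPM. A value of 0 allows up to 3 reads, or 0.256 to 0.603 CPM depending on the library. As a whole the 239 genes took 1.30 to 1.55% of reads in wild type libraries, 1.38 to 1.5% in ioc3Δ, 1.33 to 1.42% in ioc3ΔcHLB and 1.22 to 1.29% in yaf9Δ. The double mutants were at 1.16 to 1.29% and 1.20 to 1.27%. By share of reads the yaf9Δ libraries lay just below all wild type libraries. On the CPM scale used elsewhere they did not, with member sums of 12083 to 15098 CPM in wild type and 12778 to 13355 CPM in yaf9Δ.

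A gene was tested when it reached 1 CPM in at least 3 libraries, which 234 of the 239 members did. Of these, 187 were at 1 CPM or more in all 18 libraries, and 47 passed in 3 to 17 libraries, some through the strain where they were highest. Differences are log2 fold changes ± SE of log2(CPM + 1) from limma, fitted over all 5786 tested genes and 18 libraries with 3 libraries per strain. Calls needed an adjusted p (Benjamini-Hochberg) below 0.1 together with a 1.5-fold difference or more. The added 1 CPM understates the change of weakly expressed genes.

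In ioc3Δ, 40 of the 234 tested members rose and 7 fell relative to wild type. That is 17.1% and 2.99% of the members, against 9.04% and 3.11% of all tested genes. The median difference was 0.16 among members and 0.01 among all genes. Of the 40 increases, 1 (YFR054C) passed the level filter only with the ioc3Δ libraries, so its call is no support. In bulk RNA, fewer cells expressing a gene and less RNA per cell cannot be told apart. In yaf9Δ the balance was the other way, with 16 members higher (6.84%, against 3.91% of all genes) and 34 lower (14.5%, against 3.61%), and a median of -0.11 against -0.01. Without wild type replicate 2 the balance was nearly even, with 17 members higher, 21 lower and a median of -0.05. That fit called 334 of all tested genes, 166 of them higher. Truncation of the HLB domain in the presence of Yaf9 gave 1 higher member and 0 lower, where 0.328% and 0.0173% of all genes were called. In that comparison limma gave an unadjusted p under 0.05 to 36 members and to 5.70% of all genes (330). There edgeR called 1 member and 0.328% of all genes, and DESeq2 5 members and 0.778%.

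In cells without Yaf9, loss of Ioc3 raised 21 members (8.97%, against 3.53% of all genes) and lowered 22 (9.40%, against 6.17%), with a member median of -0.02. Without yaf9Δ replicate 1 the counts were 10 higher and 20 lower, without yaf9Δ replicate 2 13 and 24, without ioc3Δ yaf9Δ replicate 1 13 and 16, and without ioc3Δ yaf9Δ replicate 3 15 and 35. Truncation of the HLB domain in the same background raised 12 (5.13%, against 2.0%) and lowered 9 (3.85%, against 2.63%), and these 21 calls became 13, 14 and 12 without yaf9Δ replicate 1, 2 and 3. Against wild type, ioc3Δ yaf9Δ had 14 members higher (5.98%, against 5.95%) and 39 lower (16.7%, against 6.38%), and ioc3ΔcHLB yaf9Δ 22 higher (9.40%, against 4.10%) and 33 lower (14.1%, against 4.77%). The lower members thus outnumbered the higher ones in all strains without Yaf9 when wild type was the reference.

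Non-overlap of libraries was counted as well, called members included. The libraries of ioc3Δ and wild type did not overlap for 85 members (36.3%), 46 of them called, which was close to the 37.3% of all genes. For ioc3ΔcHLB the counts were 43 members (18.4%) against 9.11%, and for yaf9Δ 117 (50.0%) against 40.3%. Within yaf9Δ strains, 97 members (41.5%, against 42.8%) did not overlap after loss of Ioc3 and 64 (27.4%, against 31.9%) after HLB truncation, so both shares were below those of all genes. Lack of overlap was also part of the rule by which most genes below were named, so it describes their levels and is no separate support.

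**Figure D1:**
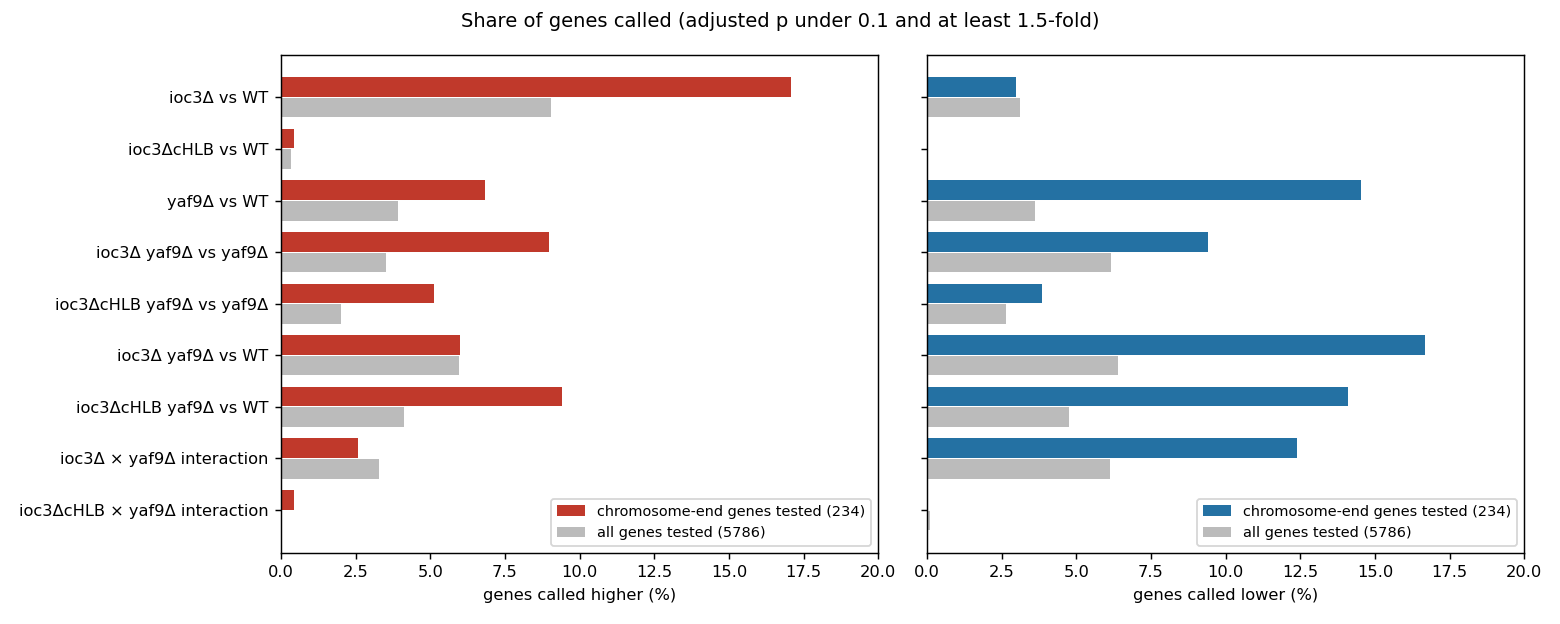
Percent of genes called higher (left panel, red) and lower (right panel, blue) in each comparison, for the 234 tested members, with all 5786 tested genes in grey. The member bars are longer than the grey bars for the genes higher in ioc3Δ (17.1% against 9.04%) and for those lower in yaf9Δ (14.5% against 3.61%).

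Weak expression and position went together, so the shares were also read by level. Among members under 10 CPM, 27 of 94 (28.7%) rose in ioc3Δ, against 22.2% of all genes at that level. Between 10 and 100 CPM the shares were 12 of 110 (10.9%) and 7.84%. Above 100 CPM the order was reversed, with 1 of 30 members (3.33%) and 5.24% of all genes higher, while 3 of 30 members and 6.40% of all genes fell. For genes lower in yaf9Δ the shares were 16.0% of members and 9.86% of all genes under 10 CPM, 16.4% and 3.57% between 10 and 100 CPM, and 3.33% and 0.815% above 100 CPM. Between 10 and 100 CPM the members thus stood further above all genes in their decreases in yaf9Δ than in their increases in ioc3Δ. These shares were not tested against each other.

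BDH2, JEN1 and MCH2 had the largest increases in ioc3Δ. BDH2, which resembles the butanediol dehydrogenase encoded by its neighbour BDH1, was at 6.002, 9.86 and 6.21 CPM in the 3 wild type libraries and at 31.3, 35.03 and 22.9 CPM in ioc3Δ. In ioc3ΔcHLB it was at 12.9, 18.1 and 10.6 CPM. All ioc3Δ libraries lay above all others, the truncation libraries were intermediate, and the difference was 1.89 ± 0.22, adjusted p = 4.92e-05 for ioc3Δ and 0.83 ± 0.22, adjusted p = 0.193 for the truncation. JEN1, the lactate and pyruvate carrier of the plasma membrane, was at 6.98, 6.15 and 8.05 CPM in wild type and 26.8, 21.96 and 22.4 CPM in ioc3Δ (1.62 ± 0.24, adjusted p = 4.22e-04). MCH2, which resembles monocarboxylate carriers, went from 1.54, 1.79 and 1.38 CPM to 7.27, 5.98 and 7.29 CPM (1.61 ± 0.21, adjusted p = 1.43e-04). Neither gene overlapped between the strains.

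YPS6, a putative aspartic protease anchored at the cell surface, was at 6.56, 6.15 and 7.24 CPM in wild type and 18.7, 15.5 and 22.9 CPM in ioc3Δ (1.37 ± 0.20, adjusted p = 3.81e-04). YMR317W, of unknown function, was at 3.35, 1.92 and 1.95 CPM and 8.61, 7.95 and 8.53 CPM (1.48 ± 0.17, adjusted p = 3.26e-05). Both were below 10 CPM in wild type and separated completely from it. A pair of mitochondrial proteins rose from higher levels. COX14, needed for assembly of cytochrome c oxidase, was at 42.99, 29.1 and 44.8 CPM in wild type and 101, 83.8 and 112 CPM in ioc3Δ (1.34 ± 0.20, adjusted p = 4.22e-04). FMP10, whose function is unknown, was at 54.7, 35.1 and 65.999 and 122, 126 and 145 CPM (1.36 ± 0.22, adjusted p = 8.93e-04). In ioc3ΔcHLB, COX14 was at 40.1, 32.9 and 26.1 CPM, which overlapped wild type.

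Of 8 tested members in the list for thiamine and vitamin B6 synthesis, 6 rose in ioc3Δ, with a list median of 0.79. Each of the 8 has a copy within the THI, SNZ or SNO family at 99.1% protein identity or more. Reads may be shared between such copies, so these genes are not independent of each other. SNZ2 and SNZ3, which make pyridoxal phosphate together with their SNO partners, lie on different chromosomes and share 99.7% of their protein sequence. SNZ3 was at 4.89, 3.84 and 4.02 CPM in wild type and 13.9, 9.06 and 11.4 CPM in ioc3Δ (1.23 ± 0.25, adjusted p = 0.00354), and SNZ2 at 6.28, 4.87 and 6.09 and 12.7, 9.83 and 12.98 CPM (0.93 ± 0.24, adjusted p = 0.0149). No library of ioc3Δ overlapped wild type for either. Of the THI genes, which make the pyrimidine portion of thiamine, THI13 rose by 1.28 ± 0.34, THI11 by 1.0 ± 0.28 and THI5 by 0.60 ± 0.24, all from under 5 CPM. THI12 was at 0.65 ± 0.33 (adjusted p = 0.175). BIO2, the tested member of the biotin list, was at -0.22 ± 0.33 (adjusted p = 0.681). The THI5 and SNO3 calls were lost when any ioc3Δ or wild type library except ioc3Δ replicate 2 was left out (0.46 to 0.65 and 0.54 to 0.65), while THI12 was called without ioc3Δ replicate 2 (0.99, adjusted p = 0.0466).

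Sugar-use genes also rose in ioc3Δ, with 7 of 13 tested members of the maltose and sugar list higher and a list median of 0.68. IMA2, an isomaltase with a 99.5% identical copy (IMA4), was at 4.75, 4.23 and 5.06 CPM in wild type and 15.7, 12.99 and 18.7 CPM in ioc3Δ (1.55 ± 0.23, adjusted p = 4.22e-04). SUC2, the invertase that splits sucrose and is repressed by glucose, was at 61.8, 68.6 and 46.7 CPM and 113, 86.7 and 121 CPM (0.85 ± 0.21, adjusted p = 0.0118). These libraries did not overlap. MAL13, a maltose activator gene, rose by 0.68 ± 0.20 and its neighbour IMA1 by 0.87 ± 0.25, while MAL32, a maltase, rose by 0.90 ± 0.27 from 0.977, 2.56 and 1.38 CPM. MAL11, a maltose permease, was at 0.28 ± 0.33 (adjusted p = 0.594). HXT8, the hexose carrier among the members, was at 0.31 ± 0.25 (adjusted p = 0.417). GEX2, a glutathione exchanger with a 99.3% identical copy (GEX1), was at 2.23, 1.79 and 2.76 CPM in wild type and 5.81, 5.72 and 5.87 CPM in ioc3Δ (1.07 ± 0.18, adjusted p = 9.07e-04). The MAL32 call was lost without wild type replicate 1 (0.71, adjusted p = 0.124) or ioc3Δ replicate 3 (0.80, adjusted p = 0.109), and that of MAL13 without wild type replicate 1 (0.54, adjusted p = 0.11) or ioc3Δ replicate 1 (0.51, adjusted p = 0.123).

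The 7 members that fell in ioc3Δ were led by BAT1, the mitochondrial aminotransferase of leucine, isoleucine and valine synthesis. It was at 1218, 1612 and 992 CPM in wild type and 353, 237 and 272 CPM in ioc3Δ, while ioc3ΔcHLB stood at 1047, 1209 and 1665 CPM. Wild type and truncation libraries overlapped and all ioc3Δ libraries lay far below both. The difference was -2.14 ± 0.18, adjusted p = 1.41e-06 in ioc3Δ, and 0.04 ± 0.18 in ioc3ΔcHLB. BAT1 lies 43930 bp from the right end of chromosome VIII, with the Leu3 motif printed above.

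A group of sulfur genes fell with it. SAM3 and MMP1 encode permeases for S-adenosylmethionine and S-methylmethionine, and MHT1 encodes the enzyme that uses S-methylmethionine to make methionine. SAM3 was at 159.7, 209 and 129 CPM in wild type and 53.8, 75.6 and 78.9 CPM in ioc3Δ (-1.24 ± 0.26, adjusted p = 0.00486). MMP1 was at 42.2, 49.2 and 33.9 and 14.4, 19.3 and 22.6 CPM (-1.12 ± 0.26, adjusted p = 0.00954), and MHT1 at 22.2, 19.5 and 23.3 and 7.27, 8.89 and 17.4 CPM (-0.98 ± 0.28, adjusted p = 0.0242). None of the 3 overlapped between the strains, although the MHT1 call was lost without ioc3Δ replicate 1 (-0.74, adjusted p = 0.114). Of the 9 tested members in the sulfur list, these 3 fell and the list median was -0.12. SAM4, a methyltransferase that recycles S-adenosylmethionine, was at 381, 442 and 352 CPM in wild type and 343, 330.1 and 289.9 CPM in ioc3Δ. Its change of -0.28 ± 0.11 was below 1.5-fold.

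COS8, of a family of membrane proteins that sort surface proteins to the vacuole, fell from 64.1, 67.2 and 60.1 CPM to 39.9, 24.4 and 31.3 CPM (-1.01 ± 0.20, adjusted p = 0.00319). The other 8 tested COS genes were not called in that comparison, and the median of the 9 was 0.01. URA1, the dihydroorotate dehydrogenase of pyrimidine synthesis, fell from 284, 362 and 257 CPM to 210.2, 139 and 165 CPM (-0.81 ± 0.17, adjusted p = 0.00546). SIR2, which is not near an end but encodes the deacetylase of telomeric silencing, was the single gene called among 30 tested genes of a list of silencing factors, at -0.68 (adjusted p = 0.00251). Of all tested genes 3.11% were called lower in that comparison, so 1 of 30 is near the share of all genes. In cells without Yaf9, loss of Ioc3 left SIR2 at -0.20 ± 0.13 (limma adjusted p = 0.307). Its part in the changes of the members was not tested.

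**Figure D2:**
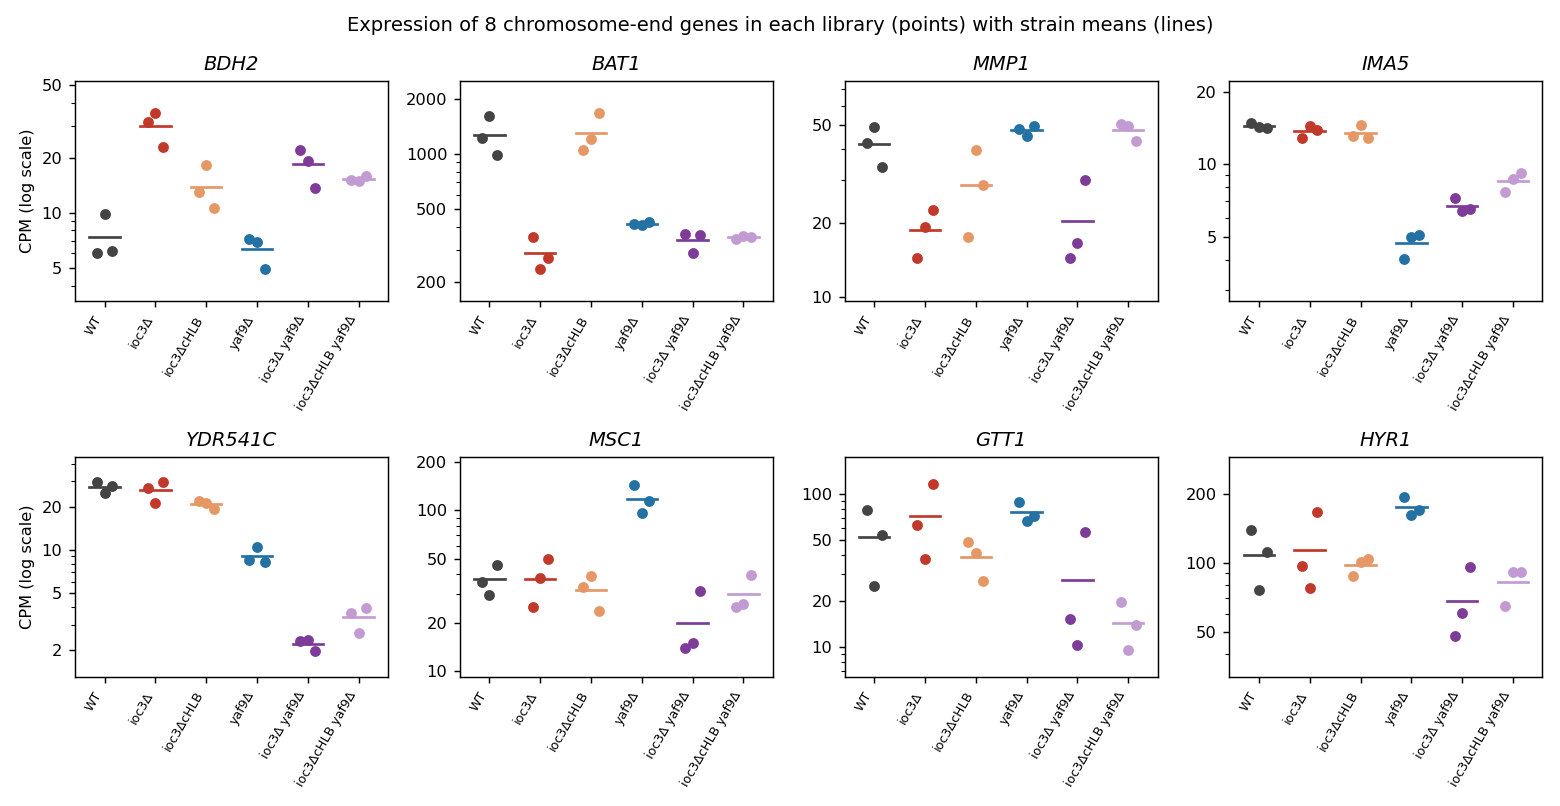
CPM on a log axis in each of the 18 libraries for 8 members, with a panel for each gene, strains along the horizontal axis, points for libraries and a line for the strain mean (n = 3). BAT1 is low in all strains except wild type and ioc3ΔcHLB, and YDR541C falls in steps from wild type through yaf9Δ to both double mutants.

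With Yaf9 present, YMR317W was the single member called after HLB truncation. That gene was at 4.66, 5.81 and 6.42 CPM in ioc3ΔcHLB, above all wild type libraries (0.98 ± 0.17, adjusted p = 0.0189). The call was lost without wild type replicate 3 or without ioc3ΔcHLB replicate 3, with a difference of 0.89 in both cases. Without wild type replicate 2, limma called 5 members in that comparison, among them BIO2 at 1.26 (adjusted p = 0.0265). Several members that rose in ioc3Δ were intermediate in the truncation strain without being called. JEN1 was at 9.91, 16.6 and 19.7 CPM there, YPS6 at 12.3, 11.98 and 12.2 CPM and IMA2 at 7.81, 7.93 and 8.96 CPM. The YPS6 and IMA2 libraries lay between those of wild type and ioc3Δ with no overlap with either. GEX2 showed the same order, at 4.51, 4.405 and 4.28 CPM (0.74 ± 0.18, adjusted p = 0.131). MHT1, which fell in ioc3Δ, had 48, 86 and 87 unscaled reads in ioc3ΔcHLB and 159, 152 and 203 in wild type. The libraries differed in size, with 5876261, 5606469 and 7905233 reads in ioc3ΔcHLB and 7343165, 7605871 and 7978635 in wild type. On the scaled values MHT1 had the largest decrease of any tested member in that comparison, at -0.93, but it was not called. Libraries of 43 members did not overlap wild type in that comparison, of which 1 was called. Both comparisons share the wild type libraries, so the order of the strains is given as levels only.

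Loss of Yaf9 lowered more members than it raised, 34 against 16, or 21 against 17 without wild type replicate 2. The largest decrease was in YER187W, an uncharacterized gene, which was at 5.304, 7.17 and 5.404 CPM in wild type and 0.653, 0.991 and 1.73 CPM in yaf9Δ (-1.73 ± 0.22, adjusted p = 1.25e-04). BAT1 fell here too, to 415, 409 and 425 CPM (-1.58 ± 0.18, adjusted p = 6.54e-05). YDR541C, a member of the aldehyde and ketone reductase family whose closest relative is GRE2, fell from 29.7, 25.1 and 28.1 CPM to 8.49, 10.5 and 8.28 CPM (-1.51 ± 0.15, adjusted p = 1.35e-05). It is the outermost listed gene of the right arm of chromosome IV and lies 11235 bp from the end. For each of these genes all yaf9Δ libraries lay below all wild type libraries.

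Of the 8 thiamine and B6 genes 4 fell in yaf9Δ, with a list median of -0.86. All 4 were SNZ or SNO genes, which form near-identical pairs, and no THI gene was called. SNZ3 was at 0.784, 0.867 and 0.742 CPM in yaf9Δ (-1.54 ± 0.25, adjusted p = 0.00104) and SNZ2 at 1.57, 1.98 and 2.35 CPM (-1.19 ± 0.24, adjusted p = 0.00573). BIO2, the biotin synthase gene, was at 39.8, 136 and 46.7 CPM in wild type and 22.3, 21.4 and 22.99 CPM in yaf9Δ (-1.47 ± 0.33, adjusted p = 0.0116), where wild type replicate 2 was far above the other wild type libraries. IMA5, an isomaltase without a near-identical copy, was even among replicates, with 14.8, 14.3 and 14.1 CPM in wild type and 4.05, 4.95 and 5.07 CPM in yaf9Δ (-1.44 ± 0.11, adjusted p = 1.21e-06). IMA2 was at 2.22, 2.601 and 2.84 CPM (-0.68 ± 0.23, adjusted p = 0.0732), a call that was lost when any of the 6 libraries was left out (-0.73 to -0.61). MAL11 was the third sugar gene to fall, at -0.94 ± 0.33, and the list median was -0.29. Without wild type replicate 2 the BIO2 difference shrank to -0.92 (adjusted p = 0.0211). The MAL11 call was lost without wild type replicate 1 or 2 or any yaf9Δ library (-0.99 to -0.69).

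Other decreases in yaf9Δ touched transport. GEX2 fell to 0.522, 0.248 and 0.494 CPM (-1.19 ± 0.18, adjusted p = 5.63e-04), and the fluoride exporters FEX1 and FEX2, which share 99.2% of their protein sequence and lie on separate chromosomes, fell with differences of -0.64 and -0.59. SEO1, a putative permease, was at 2.37, 5.12 and 2.76 CPM in wild type and 1.04, 0.619 and 0.494 CPM in yaf9Δ (-1.32 ± 0.35, adjusted p = 0.0244). MDL2, an ABC transporter of the mitochondrial inner membrane, fell from 60.6, 57.9 and 65.9 CPM to 33.8, 30.5 and 33.1 CPM (-0.90 ± 0.10, adjusted p = 2.79e-05), with close replicates. YDL241W was at 6.6997, 16.01 and 6.09 CPM and 2.74, 3.096 and 3.09 CPM (-1.30 ± 0.35, adjusted p = 0.0293), and it was no longer called without wild type replicate 2 (-0.90, adjusted p = 0.127) or without yaf9Δ replicate 1 (-1.25, adjusted p = 0.102). The SEO1 call was lost without wild type replicate 2 (-1.06, adjusted p = 0.103) and the FEX1 call without wild type replicate 1 (-0.58, below 1.5-fold). That of FEX2 was lost without wild type replicate 1 or 2 or yaf9Δ replicate 1 or 3 (-0.59 to -0.49). Without wild type replicate 2 the number of members lower in yaf9Δ fell from 34 to 21.

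The 16 members that rose in yaf9Δ included stress and iron genes. MSC1, whose loss affects the choice of recombination partner in meiosis, was at 36.01, 29.96 and 45.5 CPM in wild type and 144, 96.97 and 114 CPM in yaf9Δ (1.64 ± 0.30, adjusted p = 0.00297). HSP31, a glyoxalase and chaperone, was at 40.8, 34.6 and 32.5 CPM and 113, 77.3 and 99.6 CPM (1.39 ± 0.21, adjusted p = 6.68e-04). YML131W, a predicted oxidoreductase, was at 32.1, 21.8 and 26.3 and 68.95, 56.1 and 67.6 CPM (1.24 ± 0.20, adjusted p = 0.00136). All yaf9Δ libraries of the 3 genes lay above all wild type libraries, and MSC1 and YML131W are on the same arm, the left arm of chromosome XIII.

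FIT3, a cell wall mannoprotein that holds iron-loaded siderophores, was at 28.1, 20.4 and 18.6 CPM in wild type and 56.5, 35.7 and 55.6 CPM in yaf9Δ (1.10 ± 0.22, adjusted p = 0.00513). Its neighbour FRE5, a putative ferric reductase, was at 0.419, 0.256 and 0.9198 CPM and 2.61, 1.98 and 2.101 CPM, or 3, 2 and 8 reads and 20, 16 and 17 reads. It reached 1 CPM in yaf9Δ and ioc3ΔcHLB yaf9Δ libraries alone and passed the level filter through them, so no test is given for it. In the metal list of 13 tested members FIT3 rose and 3 fell, and the median was -0.06. FRE5 is counted among the 16 increases in yaf9Δ, but its call is no support because of the way it passed the filter. Of the metal carriers of that list, the zinc transporter gene ZRT1 was at -0.15 ± 0.32 and the iron transporter gene FET4 at 0.05 ± 0.16 (adjusted p = 0.825 and 0.886).

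Of the 9 tested COS genes 4 rose in yaf9Δ, and the list median was 0.57. COS7 went from 14.8, 12.9 and 10.003 CPM to 28.6, 27.4 and 24.97 CPM (1.06 ± 0.18, adjusted p = 0.00172), and COS8 from 64.1, 67.2 and 60.1 CPM to 111, 93.5 and 103 CPM (0.67 ± 0.20, adjusted p = 0.0383). COS1 rose by 0.82 ± 0.19 and COS9 by 0.60 ± 0.13. COS5 was at 0.12 ± 0.13 (adjusted p = 0.627) although its protein is 94.3% identical to that of COS7. The 4 genes that rose lie on 4 different chromosomes. The COS8 call was lost without wild type replicate 3 (0.63, adjusted p = 0.117), yaf9Δ replicate 1 (0.62, adjusted p = 0.137) or yaf9Δ replicate 3 (0.67, adjusted p = 0.108), and COS9 dropped below 1.5-fold without wild type replicate 1 (0.58) or 3 (0.56).

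Loss of Ioc3 in cells that already lacked Yaf9 lowered MSC1, FIT3, HYR1 and CHA1. This comparison and that of yaf9Δ with wild type share the yaf9Δ libraries with opposite sign, so that a high yaf9Δ library alone gives opposite directions, and each is given by its own values. MSC1 fell from 144, 96.97 and 114 CPM in yaf9Δ to 13.9, 14.9 and 31.3 CPM in ioc3Δ yaf9Δ (-2.58 ± 0.30, adjusted p = 4.47e-05), back to or below the wild type range. GTT1, a glutathione transferase of the endoplasmic reticulum, was at 89.3, 67.003 and 72.4 CPM and 15.4, 10.3 and 56.5 CPM (-1.80 ± 0.52, adjusted p = 0.0322). The third double mutant library was high and the call was lost without ioc3Δ yaf9Δ replicate 1 or 2 or yaf9Δ replicate 1 (-1.68 to -1.32). Next to it, HYR1, the thiol peroxidase that activates Yap1 in oxidative stress, was at 193, 161 and 169.96 CPM and 47.98, 60.3 and 96.1 CPM (-1.40 ± 0.27, adjusted p = 0.00347). IRC24, the next gene inward and a predicted reductase, fell as well (-1.08 ± 0.22, adjusted p = 0.00526). Thus 3 adjacent genes on the right arm of chromosome IX fell together. Of 190 adjacent member pairs tested, 7 were called in the same direction in that comparison. Adjacent pairs of the whole table were not counted, so it is not known whether these pairs are more frequent near the ends.

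CHA1, the serine and threonine deaminase that serine induces, was at 163, 143 and 168 CPM in yaf9Δ and 27.2, 108 and 36.7 CPM in ioc3Δ yaf9Δ (-1.71 ± 0.41, adjusted p = 0.0131). FIT3 was at 16.9, 19.4 and 19.1 CPM in ioc3Δ yaf9Δ (-1.34 ± 0.22, adjusted p = 8.20e-04) and FRE5 at 0.6795, 0.782 and 0.368 CPM. Both iron genes were thus within or below the wild type range in ioc3Δ yaf9Δ. COS7 and COS8 fell as well, COS7 to 12.2, 10.8 and 10.7 CPM (-1.19 ± 0.18, adjusted p = 4.26e-04) and COS8 to 49.2, 37.8 and 64.9 CPM (-1.03 ± 0.20, adjusted p = 0.00286). ATP15, the epsilon subunit of ATP synthase, was at 89.05, 93.6 and 81.9 CPM in wild type, at 152, 144 and 154 CPM in yaf9Δ and at 71.9, 66.8 and 118 CPM in ioc3Δ yaf9Δ (-0.85 ± 0.17, adjusted p = 0.00507).

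YDR541C fell from 8.49, 10.5 and 8.28 CPM in yaf9Δ to 2.31, 2.35 and 1.96 CPM in ioc3Δ yaf9Δ (-1.65 ± 0.15, adjusted p = 3.67e-06), whereas ioc3Δ alone left it at 27.2, 21.1 and 29.7 CPM, within the wild type range. The difference between double mutant and wild type was -3.16 ± 0.15, adjusted p = 4.58e-10, the largest decrease among the members in any of the 5 comparisons with wild type.

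Some effects of losing Ioc3 appeared both with and without Yaf9. These comparisons have separate control libraries. Of the members, 12 rose in both: BDH2, THI13, FMP10, SNZ3, SUC2, JEN1, GTT2, COX14, YMR317W, SNZ2, YNR068C and IMA2. COS8, MHT1, MMP1 and SAM3 fell in both. That is 5.13% and 1.71% of the tested members, against 2.13% and 1.16% of all genes. BDH2 went from 7.18, 6.94 and 4.94 CPM in yaf9Δ to 22.2, 19.2 and 13.7 CPM in ioc3Δ yaf9Δ (1.39 ± 0.22, adjusted p = 8.29e-04), and SNZ3 from 0.784, 0.867 and 0.742 to 3.13, 2.19 and 3.93 CPM (1.16 ± 0.25, adjusted p = 0.0059). MHT1 fell from 24.2, 23.4 and 23.5 CPM to 5.44, 6.41 and 11.5 CPM (-1.55 ± 0.28, adjusted p = 0.00209). MMP1 fell from 48.1, 45.3 and 49.6 to 14.4, 16.6 and 29.8 CPM (-1.26 ± 0.26, adjusted p = 0.00557). SAM3 fell from 194, 188 and 200.001 to 91.3, 111 and 98.5 CPM (-0.95 ± 0.26, adjusted p = 0.0246). For the sulfur genes no double mutant library reached any yaf9Δ library. Several of the shared calls rested on single libraries. In cells without Yaf9 the SAM3 call was lost without ioc3Δ yaf9Δ replicate 1 (-0.89, adjusted p = 0.106). The JEN1 call was lost without that library or any yaf9Δ library (0.64 to 0.75), and the SUC2 call without ioc3Δ yaf9Δ replicate 3 or yaf9Δ replicate 1 or 3 (0.51 to 0.69). The IMA2 call was lost without ioc3Δ yaf9Δ replicate 1 or 3 or yaf9Δ replicate 1 or 2 (0.38 to 0.77), that of THI13 without ioc3Δ yaf9Δ replicate 1 or 3 or yaf9Δ replicate 2 or 3 (lowest 0.67), and that of YNR068C without yaf9Δ replicate 1 (0.62, adjusted p = 0.105). With Yaf9 present YNR068C dropped below the threshold without wild type replicate 1 (0.46), and the MHT1 call was lost without ioc3Δ replicate 1, as given above.

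STL1, a glycerol and proton symporter, was the 1 member called in opposite directions, higher in ioc3Δ and lower in the double mutant, as were 0.259% of all genes. It rose in ioc3Δ (0.94 ± 0.22, adjusted p = 0.00877) from 0.419, 0.768 and 0.575 CPM to 2.35, 1.37 and 2.49 CPM, and fell from 2.48, 2.48 and 2.97 CPM in yaf9Δ to 0.951, 0.625 and 1.47 CPM in the double mutant (-0.87 ± 0.22, adjusted p = 0.0156).

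Whether loss of Ioc3 acted differently without Yaf9 was tested by the interaction of both changes. A negative value means that the effect of losing Ioc3 was lower in cells without Yaf9. Of the members 6 had a positive interaction (2.56%, against 3.27% of all genes) and 29 a negative one (12.4%, against 6.12%), with a median of -0.22 against -0.05. The 35 calls became 16 to 49 when 1 library was left out, with 13 to 41 negative. They numbered 22 without wild type replicate 3, 20 and 17 without ioc3Δ replicate 1 and 3, 16 and 19 without yaf9Δ replicate 1 and 3, and 16 and 21 without ioc3Δ yaf9Δ replicate 1 and 2. An adjusted p under 0.05 left 18, and array weights gave 74. Over all genes these settings gave 300 and 1195 calls, against 543 in the main fit. MSC1 (-2.56 ± 0.42, adjusted p = 0.00652), CHA1 (-2.43 ± 0.58, adjusted p = 0.026), GTT1 (-2.25 ± 0.74, adjusted p = 0.0758) and FIT3 (-1.63 ± 0.31, adjusted p = 0.0106) were negative. These genes fell in cells without Yaf9 and were not called in ioc3Δ with Yaf9 present. YPS6 (-1.57 ± 0.29, adjusted p = 0.00972) and MCH2 (-1.35 ± 0.30, adjusted p = 0.0214) had a negative interaction with another order of levels: they rose in ioc3Δ but were at 4.89, 3.596 and 8.09997 and 1.36, 1.72 and 3.19 CPM in ioc3Δ yaf9Δ, close to yaf9Δ. YDR541C was at -1.55 ± 0.21, adjusted p = 0.00156. The GTT1 interaction was lost when any of 9 of its 12 libraries was left out (-2.34 to -1.77).

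BAT1 had the largest positive interaction (1.83 ± 0.26, adjusted p = 0.00198). Its level was below all wild type libraries in every strain that lacked Ioc3 or Yaf9, at 237 to 353 CPM in ioc3Δ and higher, at 409 to 425 CPM, in yaf9Δ, without overlap between both. It was at 365, 288 and 362 CPM in ioc3Δ yaf9Δ and 346, 359 and 351 CPM in ioc3ΔcHLB yaf9Δ. Against yaf9Δ these differed by -0.31 ± 0.18 and -0.24 ± 0.18, below the 1.5-fold threshold. With Yaf9 present BAT1 was low after the deletion and overlapped wild type after the truncation.

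**Figure D3:**
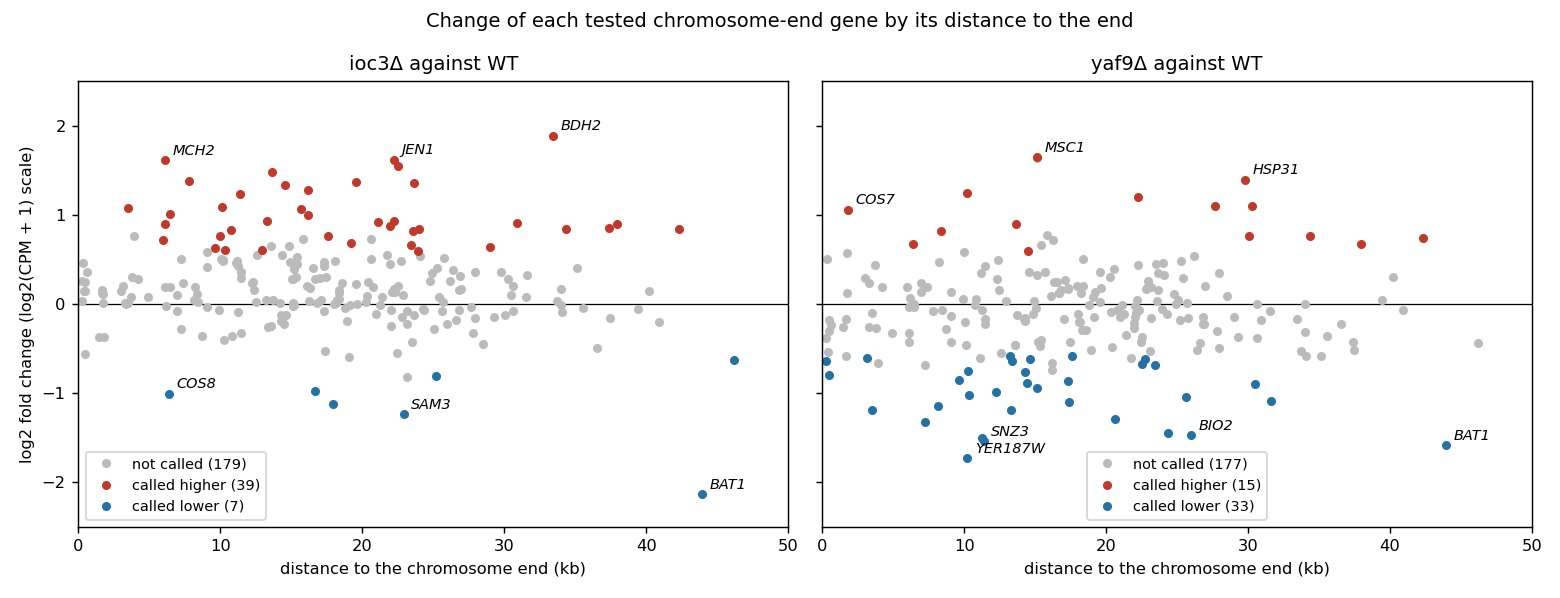
Log2 fold change of each member with an annotated position against its distance from the chromosome end in kb, for ioc3Δ against wild type and yaf9Δ against wild type, with called genes in colour. Called increases in ioc3Δ and called decreases in yaf9Δ occur from the outermost 10 kb to beyond 30 kb, and BAT1 is low in both panels at 43930 bp.

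HLB truncation in cells without Yaf9 changed 21 members. The largest decrease was GTT1, which went from 89.3, 67.003 and 72.4 CPM in yaf9Δ to 19.7, 9.64 and 13.97 CPM (-2.37 ± 0.52, adjusted p = 0.0156), with all truncation libraries far below. MSC1 fell to 25.1, 26.3 and 39.6 CPM (-1.94 ± 0.30, adjusted p = 0.00214). YDR541C fell to 3.62, 2.61 and 3.93 CPM (-1.21 ± 0.15, adjusted p = 4.54e-04), and FIT3 to 17.5, 25.3 and 27.8 CPM (-1.03 ± 0.22, adjusted p = 0.0121). HYR1 (-1.08 ± 0.27, adjusted p = 0.034) and IRC24 (-0.72 ± 0.22, adjusted p = 0.0789) fell beside GTT1 here too. This comparison and that of ioc3Δ yaf9Δ share the yaf9Δ libraries, so their values are given side by side only. The HYR1 call was lost without yaf9Δ replicate 1 (-1.01, adjusted p = 0.138) or 3 (-1.1, adjusted p = 0.1005), and the IRC24 call without any yaf9Δ library or ioc3ΔcHLB yaf9Δ replicate 2 or 3 (-0.78 to -0.67).

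The sulfur genes MMP1, SAM3 and MHT1 were not called after truncation in cells without Yaf9. MMP1 was at 50.5, 49.7 and 42.9 CPM in ioc3ΔcHLB yaf9Δ (-0.00 ± 0.26, adjusted p = 0.997), SAM3 at 133, 242 and 226 CPM (-0.00 ± 0.26, adjusted p = 0.995) and MHT1 at 15.9, 18.3 and 18.5 CPM (-0.41 ± 0.28, adjusted p = 0.439). MMP1 and MHT1 libraries lay above those of ioc3Δ yaf9Δ, as did those of SAM3. The difference between both double mutants was not tested.

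Among the 12 members that rose with the truncation in yaf9Δ cells were BDH2, at 15.1, 14.9 and 15.9 CPM (1.16 ± 0.22, adjusted p = 0.00756), and JEN1, at 13.9, 27.6 and 29.2 CPM (1.12 ± 0.24, adjusted p = 0.0146). SUC2 rose from 43.1, 43.6 and 42.8 CPM to 99.7, 91.96 and 97.03 CPM (1.14 ± 0.21, adjusted p = 0.00506). IMA5 rose from 4.05, 4.95 and 5.07 CPM to 7.64, 8.66 and 9.16 CPM (0.74 ± 0.11, adjusted p = 0.00203), still below the wild type libraries. DIA1, a gene linked to invasive growth, was at 86.5, 24.7 and 17.5 CPM against 17.4, 15.1 and 13.2 CPM in yaf9Δ (1.10 ± 0.36, adjusted p = 0.0979), and its difference shrank to 0.43 without ioc3ΔcHLB yaf9Δ replicate 1. The DIA1 call was also lost without ioc3ΔcHLB yaf9Δ replicate 2 or any yaf9Δ library. In the interaction of truncation with loss of Yaf9, 1 member was positive and 0 negative (limma), where 0.0173% and 0.104% of all genes were called and 17 members and 6.24% of all genes had an unadjusted p under 0.05. DESeq2 called 2 members and 0.518% of all genes in that interaction, and edgeR 0 of either. The positive one was IMA5 (0.83 ± 0.16, adjusted p = 0.0797). Its interaction was lost when any of 10 of the 12 libraries was left out (0.75 to 0.88).

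Relative to wild type, the double mutants combined these patterns. SNZ2, SNZ3, SNO2 and SNO3 were lower in ioc3ΔcHLB yaf9Δ, SNZ3 with a difference of -1.21 ± 0.25, whereas in ioc3Δ yaf9Δ SNZ3 was at -0.38 ± 0.25 (adjusted p = 0.325). COS1 was higher in ioc3ΔcHLB yaf9Δ, by 0.80 ± 0.19, and was at 0.38 ± 0.19 in ioc3Δ yaf9Δ. HSP31 was higher in both, by 0.84 ± 0.21 and 0.98 ± 0.21. The 3 sulfur genes and SEO1 were lower in ioc3Δ yaf9Δ, and of these SEO1 alone was called in ioc3ΔcHLB yaf9Δ. DLD3, a D-lactate dehydrogenase, rose in ioc3ΔcHLB yaf9Δ (0.76 ± 0.21, adjusted p = 0.0232), with 248, 262 and 256 CPM in wild type and 318, 532 and 484 CPM in that strain. The DLD3 call was lost without ioc3ΔcHLB yaf9Δ replicate 2 (0.62, adjusted p = 0.111). The SNO3 call in that strain was lost without its replicate 2 or 3 or wild type replicate 2 or 3 (-0.68 to -0.56). That of SNZ2 was lost there without its replicate 3 or wild type replicate 3 (-0.76 to -0.65). In ioc3Δ yaf9Δ the SAM3 call was lost when any of 5 of the 6 libraries was left out (-0.77 to -0.52). The SEO1 call was lost without any of 4 libraries in ioc3ΔcHLB yaf9Δ (-0.99 to -0.63) and any of 3 in ioc3Δ yaf9Δ (-0.97 to -0.85), wild type replicate 2 among them in both.

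**Figure D4:**
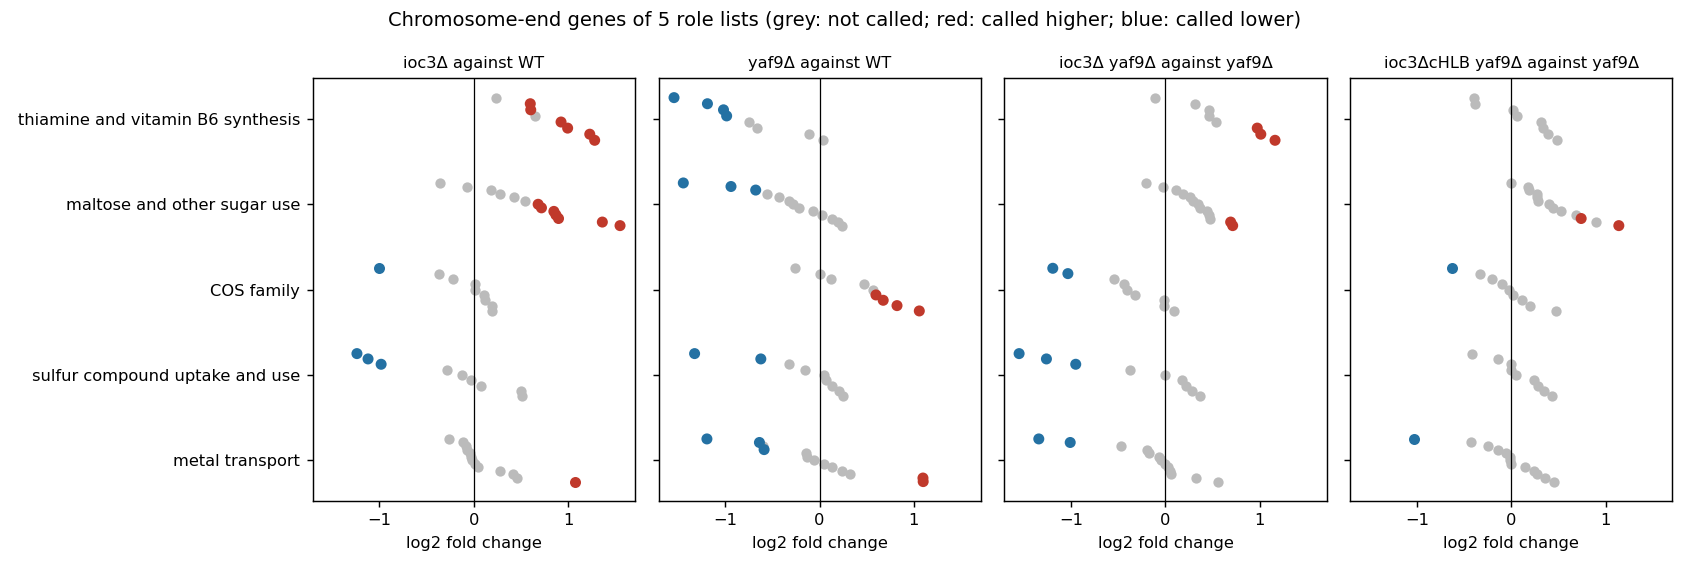
Log2 fold change of each tested member of 5 role lists in 4 comparisons, with a point for each gene, red where called higher, blue where called lower and grey where not called. Thiamine and vitamin B6 synthesis shows 6 of 8 genes higher in ioc3Δ and 4 of 8 lower in yaf9Δ. These 8 are near-identical copies within the THI, SNZ and SNO families and not independent. The COS family shows 4 of 9 higher in yaf9Δ.

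The PAU, flocculin and AAD families had 0 or 1 called member in each comparison with wild type except for the flocculins in ioc3ΔcHLB yaf9Δ. Of the 3 tested PAU genes, which encode small cell wall mannoproteins induced without oxygen, PAU12 fell in yaf9Δ from 3.91, 3.84 and 2.99 CPM to 1.57, 2.48 and 1.24 CPM (-0.75 ± 0.23, adjusted p = 0.0453), while PAU4 was at 0.1396, 0.384 and 0.6899 CPM in wild type and 0.653, 0.372 and 0.247 CPM in yaf9Δ. Among the flocculins, adhesins of the cell wall with repeated sequence, FLO9 rose in ioc3Δ from 8.51, 10.8 and 7.36 CPM to 20.7, 13.2 and 16.5 CPM (0.84 ± 0.16, adjusted p = 0.00319), and FLO5 was at -0.02 ± 0.16 (adjusted p = 0.963). In ioc3ΔcHLB yaf9Δ 2 of the 3 flocculins were higher than in wild type, with a list median of 0.60. FLO9 was at 0.60 ± 0.16 there. FLO1 was at 4.33, 2.69 and 3.22 CPM in wild type, 5.71, 5.94 and 6.14 CPM in ioc3Δ yaf9Δ (0.67 ± 0.25, adjusted p = 0.0819) and 6.43, 5.06 and 6.26 CPM in ioc3ΔcHLB yaf9Δ (0.66 ± 0.25, adjusted p = 0.096). Both FLO1 calls were lost when any of 5 of the 6 libraries was left out, with lowest differences of 0.55 and 0.54, and the FLO9 call without wild type replicate 1 (0.58) or 3 (0.49) or ioc3ΔcHLB yaf9Δ replicate 1 (0.52). Of the 5 tested AAD genes, putative aryl-alcohol dehydrogenases, AAD4 rose in ioc3Δ (0.76 ± 0.17, adjusted p = 0.00677) and fell in yaf9Δ (-0.59 ± 0.17, adjusted p = 0.0371). It lies beside THI13 on the left arm of chromosome IV. AAD10 was lower in ioc3ΔcHLB yaf9Δ than in wild type (-0.62 ± 0.12, adjusted p = 0.00394), a call that was lost without ioc3ΔcHLB yaf9Δ replicate 1 (-0.5). The PAU12 call was lost without wild type replicate 2 (-0.71, adjusted p = 0.125), yaf9Δ replicate 1 (-0.71, adjusted p = 0.142) or yaf9Δ replicate 3 (-0.61, adjusted p = 0.182), and the AAD4 decrease without wild type replicate 2 (-0.5, adjusted p = 0.132) or yaf9Δ replicate 3 (-0.52, adjusted p = 0.141).

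FDH1, the formate dehydrogenase gene, stayed at 0.6402 to 1.49 CPM in wild type, 0.9398 to 1.78 CPM in ioc3Δ and 1.04 to 1.61 CPM in yaf9Δ. HSP33, a relative of HSP31, did not pass the level filter. HXK1, the hexokinase that glucose represses, could not be judged, since the 3 ioc3Δ libraries held 22.2, 33.4 and 482 CPM and the 3 ioc3Δ yaf9Δ libraries 18.3, 18.9 and 283 CPM. Without the highest library of ioc3Δ yaf9Δ, replicate 3, it was called lower there than in yaf9Δ (-3.52, adjusted p = 0.013). Its SE was 0.99 log2 units. HXK2 rose in ioc3Δ, from 1338, 1273 and 1051 CPM to 1958, 1611 and 1963 CPM (0.60 ± 0.16, adjusted p = 0.0183), close to the 1.5-fold threshold. MGA2, a transcription factor of fatty acid desaturation held at the endoplasmic reticulum, rose in ioc3Δ yaf9Δ from 52.5, 49.9 and 51.8 CPM to 139, 85.05 and 91.2 CPM (0.98 ± 0.31, adjusted p = 0.0471). ZUO1 rose in the same comparison, from 624, 709.5 and 664 to 1153, 1110.5 and 808 CPM (0.60 ± 0.15, adjusted p = 0.0135), and ERG13 fell from 1435, 1298 and 1426 to 734, 789 and 725 CPM (-0.89 ± 0.26, adjusted p = 0.0323). HXK2 dropped below 1.5-fold without wild type replicate 3 (0.49), ioc3Δ replicate 1 (0.55) or ioc3Δ replicate 3 (0.55), and ZUO1 without ioc3Δ yaf9Δ replicate 1 (0.51) or 2 (0.54) or yaf9Δ replicate 1 (0.56). The MGA2 call was lost without ioc3Δ yaf9Δ replicate 1 or any yaf9Δ library (0.77 to 1.0), and that of ERG13 without ioc3Δ yaf9Δ replicate 1 (-0.87, adjusted p = 0.109) or yaf9Δ replicate 1 (-0.86, adjusted p = 0.105).

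In the whole table, the share of called genes changed with distance from the telomere in some comparisons and directions. In bands of 0 to 10, 10 to 20, 20 to 30, 30 to 50 and 50 to 100 kb and beyond 100 kb, 18.2%, 21.6%, 18%, 11.2%, 7.84% and 8.48% of all tested genes rose in ioc3Δ. For decreases in yaf9Δ the shares were 16.4%, 19.6%, 11.7%, 6.12%, 2.88% and 2.83%, so that both fell to the level of internal genes beyond about 50 kb. The band next to the ends held 55 genes and that beyond 100 kb 4271. Of the 55 and 97 tested genes of the first 2 bands, 50 and 84 were members, so these shares are largely those of the members. The bands were not split by level. Among all tested genes under 10 CPM, at any distance, 22.2% rose in ioc3Δ and 9.86% fell in yaf9Δ. Other shares were lower next to the ends: 1.82% of genes in the outermost 10 kb fell in ioc3Δ, against 3.09% beyond 100 kb, and 1.82% rose in ioc3Δ yaf9Δ against wild type, compared with 5.83%. After loss of Ioc3 in yaf9Δ cells 1 of the 55 outermost genes rose and 3 fell, against 3.26% and 6.30% beyond 100 kb. Within the members alone, the share higher in ioc3Δ was 16.0%, 16.7%, 16.9% and 23.1% in the first 4 bands. For decreases in yaf9Δ it was 14.0%, 19.0%, 10.8% and 11.5%. Among members there was thus no steady trend with distance.

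Counts were also split by orientation. Of 126 tested members transcribed towards the chromosome end 22 fell in yaf9Δ and 18 rose in ioc3Δ, and of 108 transcribed away from it 12 fell and 22 rose. Of the 49 tested members with a near-identical copy 13 rose in ioc3Δ and 10 fell in yaf9Δ. The 185 members without such a copy had 27 and 24, so most called members had no such copy. By share, copied members were called more often in both comparisons. In ioc3Δ 26.53% of them rose, against 14.59% of members without a copy and 9.04% of all genes. Their median difference there was 0.31, against 0.09 for members without a copy. In yaf9Δ 20.41% of copied members fell, against 12.97% and 3.61%. These shares were not split by level.

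Calls were spread over the arms. In ioc3Δ the left arm of chromosome XII held 4 called genes of 8, 2 higher and 2 lower. In yaf9Δ 4 of the 7 members on the left arm of chromosome XV fell, and on its right arm 2 of 8 rose and 2 fell. Of 190 pairs of adjacent members, 8 were called in the same direction in ioc3Δ, among them SNO3 with SNZ3 and SNZ3 with THI5 on the left arm of chromosome VI. In yaf9Δ 7 pairs were called in the same direction, including SNO2 with SNZ2. FRE5 with FIT3 is also among them, with the limit on FRE5 given above. Adjacent pairs outside the members were not counted, so these numbers do not measure clustering at chromosome ends.

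**Figure D5:**
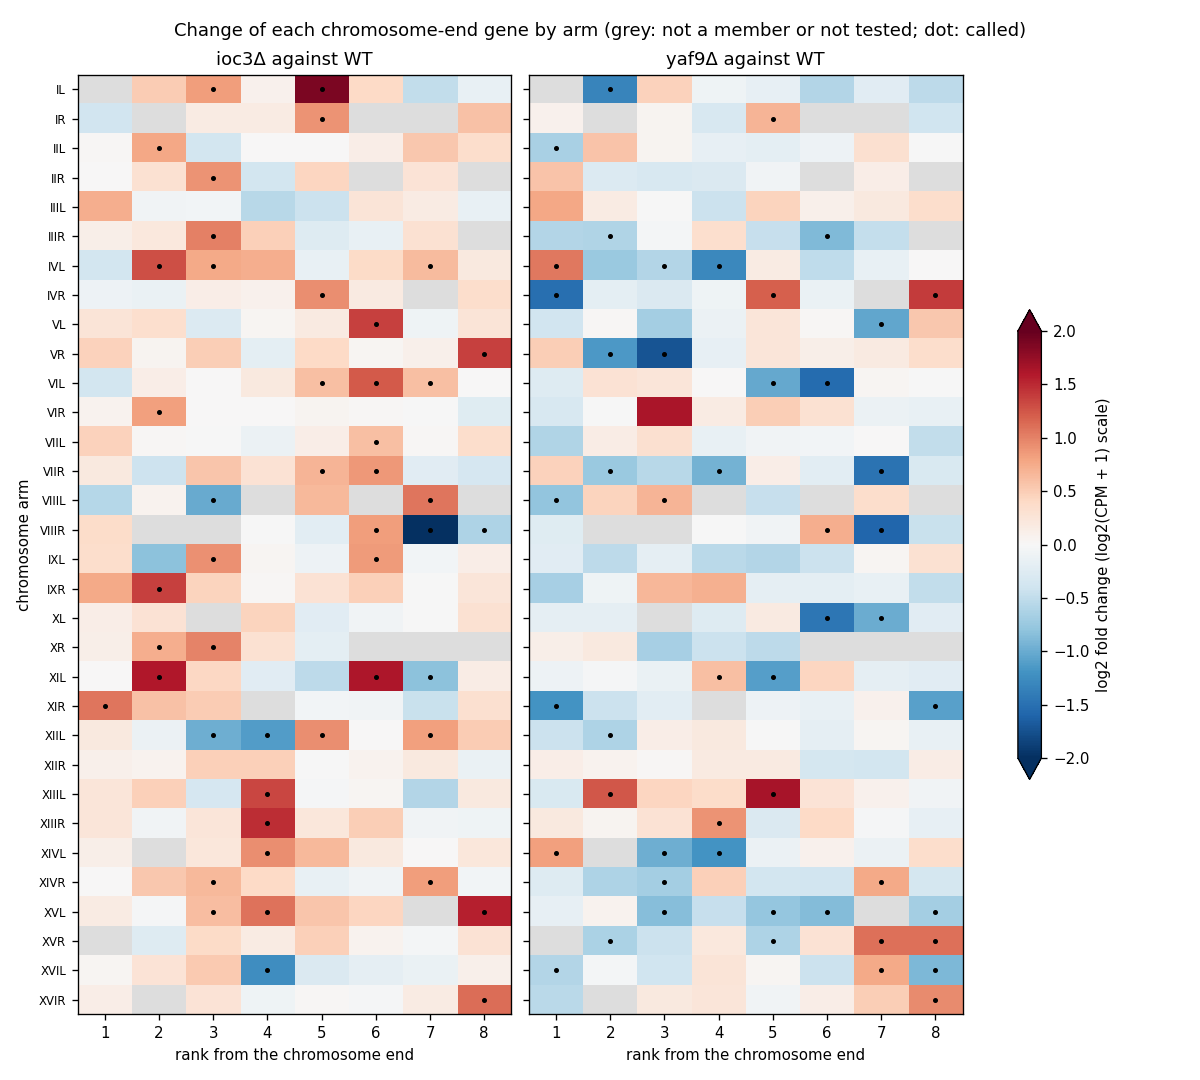
Log2 fold change (colour) of each tested member by chromosome arm (vertical) and rank from the chromosome end (horizontal), for ioc3Δ and yaf9Δ against wild type, with a dot on called genes and grey where no member was tested. No arm holds more than 4 called genes in either comparison, and the left arm of chromosome XV has 4 genes lower in yaf9Δ.

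Genes of the silencing machinery were read beside the members, from a list of 31 factors of telomeric silencing and its boundaries of which 30 were tested. In yaf9Δ, SWR1, the ATPase that deposits H2A.Z, rose by 0.68 log2 units and YKU80, of the telomere end-binding Ku complex, fell by 0.82 log2 units (limma adjusted p = 0.0173 and 0.00198). In ioc3Δ yaf9Δ against wild type 2 rose, SWR1 and RIF2, and 2 fell, YKU80 and SAS5, while in ioc3ΔcHLB yaf9Δ SWR1 rose and SAS5 fell. Over all tested genes 3.91% rose and 3.61% fell in yaf9Δ, 5.95% and 6.38% in ioc3Δ yaf9Δ, and 4.10% and 4.77% in ioc3ΔcHLB yaf9Δ. The part of the silencing genes in the values of the members was not tested.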

How the data were processed

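Poly(A) RNA of 6 yeast strains with 3 biological replicates each was sequenced as paired ends from strand-specific libraries. Per the labels and the study's methods, mapping to sacCer3 was done by the authors in TopHat2 2.0.10 with Bowtie2 2.0, and counting in HTSeq. The authors deposited a signal per gene, the CPM at the effective library size from edgeR 3.6.2, not on a log scale. The values of each library were whole multiples of 1 read for 100% of genes, within 0.01 reads, which recovered the read counts. Library sizes were 5145170 to 10192972 reads. A value of 0 was read as up to 3 reads, a limit that covers counting error alone.

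The test was limma 3.58.1 (R 4.3.3) with its trend option, on log2(CPM + 1), in 1 fit of 18 libraries with a mean per strain. Genes with at least 1 CPM in 3 libraries entered, and Benjamini-Hochberg adjustment ran over the 5786 genes of each of 9 comparisons. Protein copies were found with blastp 2.17.0 at 90% identity over 80% of the length. Of 5830 systematic names 5634 matched the RefSeq R64 annotation. A further 4 lines without a gene were not analysed here. The script was tested on simulated data.

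The members, role lists and tests were chosen with earlier results of these data known. Named genes were up to 6 called each way per main comparison, with at least 5 CPM and no overlap between libraries, up to 4 per interaction, the 2 highest members of each list and the 5 highest members. Other members named were chosen after their values were seen, among them COX14, FMP10, GEX2, FRE5, STL1, SEO1, MDL2, IRC24, HXK1, FLO1, AAD10 and the further THI, SNO, MAL, IMA and COS genes. The alternatives tried were array weights, a replicate block, fits of only the compared groups, median-of-ratios scaling, pseudocounts of 0.25 and 5, no filter on level, an adjusted p under 0.05, edgeR 4.0.16 (quasi-likelihood) and DESeq2 1.42.0 on recovered reads, and leaving out each library. The labels number replicates 1 to 3 in every strain. Deviations of equal numbers correlated above 0.1 in all 3 pairs for 2 of 15 strain pairs, wild type with ioc3Δ (0.206, 0.212 and 0.11) and ioc3Δ with ioc3Δ yaf9Δ (0.23, 0.602 and 0.572).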

Additional observations from a re-analysis of the deposited data

Results flagged for a closer look

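The effect of losing Ioc3 differed between cells with and without Yaf9 for 18 of the named members, by the interaction term of limma (log2 ± SE, 3 libraries per strain, adjusted over all tested genes). It was more negative without Yaf9 for MSC1 (-2.56 ± 0.42, adjusted p = 0.00652), CHA1 (-2.43 ± 0.58, adjusted p = 0.026), GTT1 (-2.25 ± 0.74, adjusted p = 0.0758) and FIT3 (-1.63 ± 0.31, adjusted p = 0.0106). The same held for YPS6 (-1.57 ± 0.29, adjusted p = 0.00972), YDR541C (-1.55 ± 0.21, adjusted p = 0.00156), HYR1 (-1.43 ± 0.39, adjusted p = 0.042) and MCH2 (-1.35 ± 0.30, adjusted p = 0.0214). Smaller negative differences were found for YML131W (-1.28 ± 0.29, adjusted p = 0.0219), HSP31 (-0.90 ± 0.30, adjusted p = 0.0777), COS7 (-0.83 ± 0.25, adjusted p = 0.0622), FLO9 (-0.83 ± 0.23, adjusted p = 0.0456), ATP15 (-0.72 ± 0.25, adjusted p = 0.0872) and SGE1 (-0.70 ± 0.23, adjusted p = 0.074).

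The effect was more positive without Yaf9 for BAT1 (1.83 ± 0.26, adjusted p = 0.00198), BIO2 (1.31 ± 0.47, adjusted p = 0.0978), ZUO1 (0.93 ± 0.21, adjusted p = 0.0212) and URA1 (0.81 ± 0.25, adjusted p = 0.0616). For HLB truncation the interaction passed for IMA5 (0.83 ± 0.16, adjusted p = 0.0797), which was even in the 3 strains with Yaf9 and rose with the truncation in cells without it.

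Several of these interactions were no longer called when 1 of the 12 libraries was left out. Without wild type replicate 2 BIO2 was at 0.76 (adjusted p = 0.134), and its call was lost in 9 such fits (0.76 to 1.43). The call was lost in 10 fits for ATP15 (-0.76 to -0.56) and for IMA5 (0.75 to 0.88), in 9 for GTT1 (-2.34 to -1.77) and SGE1 (-0.70 to -0.57), and in 8 for HSP31 (-0.88 to -0.74) and COS7 (-0.88 to -0.68). It was lost in 5 for FLO9 (-0.83 to -0.68) and URA1 (0.67 to 0.83) and in 3 for HYR1, without ioc3Δ replicate 3, yaf9Δ replicate 1 or ioc3Δ yaf9Δ replicate 1 (-1.36 to -1.12).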

How the results depend on the processing

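No called named member reversed its direction under any alternative. Their calls were followed in the 5 main comparisons, the interactions and the double mutants against wild type. Over fits that left out 1 library 1018 held and 272 were lost. Over all other settings 2127 held and 189 were lost. The other settings include the fit without wild type replicate 2 and ioc3ΔcHLB replicate 3 together, which was added after seeing the data. With a pseudocount of 5 the called members numbered 29 in place of 47 in ioc3Δ, 26 in place of 50 in yaf9Δ, 34 in place of 53 in ioc3Δ yaf9Δ and 25 in place of 55 in ioc3ΔcHLB yaf9Δ, each against wild type. There were then 10 in place of 21 in ioc3ΔcHLB yaf9Δ against yaf9Δ, and 0 where 1 had been called for the truncation and for its interaction with Yaf9. Over all genes the calls against wild type fell as well. They went from 703 to 492 in ioc3Δ, from 435 to 271 in yaf9Δ, from 713 to 514 in ioc3Δ yaf9Δ and from 513 to 328 in ioc3ΔcHLB yaf9Δ. Those of ioc3ΔcHLB yaf9Δ against yaf9Δ fell from 268 to 183. The larger pseudocount shrinks changes of weakly expressed genes by construction.

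The single call for the truncation against wild type became 0 with only the compared groups, 3 with array weights, 5 with DESeq2 and 3 with the replicate block. Over all genes these fits gave 2, 19, 45 and 24 calls, in place of 20. Without wild type replicate 2 and ioc3ΔcHLB replicate 3 together, an alternative added after seeing the data, 2 members were called for the truncation. Its interaction became 0 with edgeR, an adjusted p under 0.05, the replicate block or both libraries left out. DESeq2 gave 2 and array weights 12, and both kept the call of the main fit. With only the compared groups that call was lost and 2 other members were called, both lower. Array weights also gave 38 in ioc3ΔcHLB yaf9Δ against yaf9Δ and 74 in the ioc3Δ interaction. The ioc3Δ interaction had 35 member calls in the fit without weights, and 18 of these at an adjusted p under 0.05. Over all genes, array weights raised the calls from 268 to 590 and from 543 to 1195 in these comparisons. In the truncation interaction they raised them from 7 to 221. The cause was not tested.

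With the replicate block ioc3Δ against wild type kept 47 calls, and with the block and only the compared groups it had 52. That fit, added after seeing the data, gave 31 in ioc3ΔcHLB yaf9Δ against wild type, 0 for the truncation and 0 for its interaction. The block moved no other count by over 1.5 times.

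With 1 library left out, calls ranged from 41 to 56 in ioc3Δ, 0 to 5 in ioc3ΔcHLB, 38 to 50 in yaf9Δ, 43 to 57 in ioc3Δ yaf9Δ and 45 to 62 in ioc3ΔcHLB yaf9Δ against wild type. Against yaf9Δ they ranged from 29 to 50 and from 12 to 27, and for the interactions from 16 to 49 and from 0 to 1. Calls over all genes moved as well. In the fits with the lowest and highest member counts against wild type they were 594 and 745 in ioc3Δ. The same fits gave 10 and 74 in ioc3ΔcHLB and 334 and 360 in yaf9Δ. At 3 libraries per strain and 0.0854 to 0.201 CPM per read, changes of members under about 1 CPM were not resolved.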
